A study of Mus musculus with 6 samples.

Results

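The endoplasmic reticulum (ER) genes described here encode the chaperones, disulfide and proline isomerases, protein-import and signal-cleavage subunits and degradation factors of the secretory pathway. They are 45 genes chosen by symbol from the 23282 entries of the count tables, and each of the 45 was found. RAW 264.7 is an established mouse macrophage line that can be driven to become bone-resorbing osteoclasts. RNA was sequenced by QuantSeq, which reads the 3′ ends of transcripts, in 3 control and 3 CPN samples, all collected on day 5 of osteoclast differentiation. The series is titled for a chaperonin of 60 kDa, and neither its source, dose and time of addition nor the agent that drove differentiation is stated in the labels. No label states that the samples were separate cultures, so the spread that the p-values are measured against may be only technical.

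Proteins enter the ER through the SEC61 channel, lose their signal peptide, and are folded by the HSP70-type chaperone BiP, by lectin chaperones that bind sugar chains, and by enzymes that form disulfide bonds. Proteins that do not fold are sent back to the cytosol and degraded, a process called ERAD. When unfolded protein accumulates, the sensors IRE1, ATF6 and PERK start the unfolded protein response, in which ATF6 and the spliced form of XBP1 switch on many of the genes described here. Counts at the 3′ end do not show whether Xbp1 RNA was spliced.

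One DNA element recognised by ATF6 and XBP1, together with the factor NF-Y, is the ER stress response element (ERSE). It was defined as CCAAT, then any 9 bases, then CCACG, and was searched on both strands in RefSeq promoter windows (GRCm38.p6) that run from 250 bases before to 50 after a transcription start. Windows were found for 37 of the 45 genes, 43 windows in all. An ERSE match lay in the windows of 9 of these 37 genes (24.3%), against 14 of 8908 tested genes with a window (0.16%) and 37 of 27025 genes in the whole table (0.14%). The matches are shown because 8 of these 9 genes could be tested and each of the 8 was higher in CPN. Each is printed along the strand of its gene. Capitals mark the fixed bases, a match on the opposite strand reads CGTGG to ATTGG, and positions are those of mm10, which is GRCm38.

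Hspa5 (chr2:34772025-34772043, 65 bases before the start): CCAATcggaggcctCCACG
Creld2 (chr15:88819520-88819538, 126 before): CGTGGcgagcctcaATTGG
Dnajc3 (chr14:118937827-118937845, 105 before): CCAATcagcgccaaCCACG
Hsp90b1 (chr10:86705638-86705656, 212 before): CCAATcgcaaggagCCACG
Hsp90b1 (chr10:86705533-86705551, 107 before): CGTGGtgaggcacgATTGG
Pdia6 (chr12:17266491-17266509, 98 before): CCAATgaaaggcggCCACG
Calr (chr8:84847075-84847093, 162 before): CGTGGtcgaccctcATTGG
Canx (chr11:50325800-50325818, 145 before): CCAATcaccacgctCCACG
Syvn1 (chr19:6046532-6046550, 44 before): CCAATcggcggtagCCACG
Derl3 (chr10:75893242-75893260, 156 before): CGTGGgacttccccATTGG

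A related element, ERSE-II, was searched as ATTGG, any 1 base, then CCACG, and no match of any element searched overlapped another in these windows. It lay in 2 of the 37 genes, Herpud1 and Dnajb11, against 8 of the 8908 tested genes (0.09%). The Herpud1 match (chr8:94386377-94386387) began 52 bases before the start and the Dnajb11 match (chr16:22857852-22857862) began 7 bases after it.

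Herpud1: ATTGGgCCACG
Dnajb11: ATTGGcCCACG

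The full window of Hspa5 (chr2:34771840-34772139, plus strand) and that of Hsp90b1 (chr10:86705395-86705694, minus strand) are given for the sequence around the matches. The second holds 2 matches that face opposite ways. The Hspa5 match lies before the RefSeq start. It lies inside the gene span of a second annotation, GENCODE, which begins at 34771970 and is the span printed below.

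Hspa5 window: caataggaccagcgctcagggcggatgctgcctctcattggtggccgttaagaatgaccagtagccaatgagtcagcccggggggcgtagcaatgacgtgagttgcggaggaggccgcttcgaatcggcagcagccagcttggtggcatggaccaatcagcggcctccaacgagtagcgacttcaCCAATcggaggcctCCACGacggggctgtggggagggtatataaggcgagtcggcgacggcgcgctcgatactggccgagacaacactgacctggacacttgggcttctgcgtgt
Hsp90b1 window: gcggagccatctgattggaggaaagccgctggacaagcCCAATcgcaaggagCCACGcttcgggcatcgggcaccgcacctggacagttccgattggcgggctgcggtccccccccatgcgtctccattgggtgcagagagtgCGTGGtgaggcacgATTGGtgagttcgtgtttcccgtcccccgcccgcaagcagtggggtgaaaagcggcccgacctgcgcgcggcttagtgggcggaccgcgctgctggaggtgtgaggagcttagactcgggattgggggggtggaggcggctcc

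**Figure D1:**
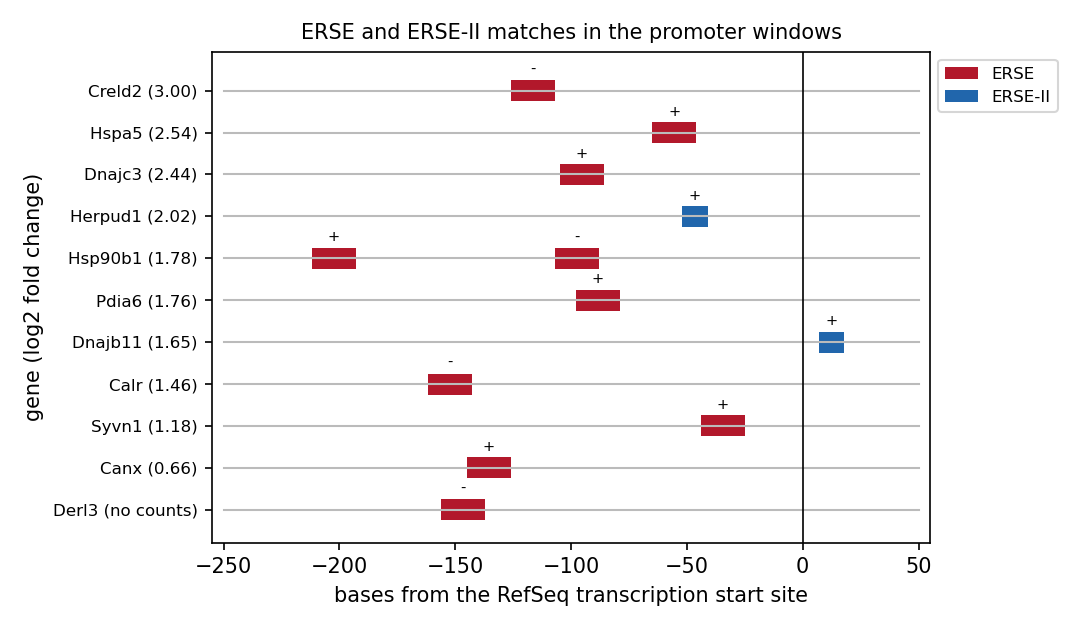
Position of each ERSE (red) and ERSE-II (blue) match relative to the RefSeq transcription start (0) in the promoter windows of the 11 genes that have one, with + (strand of the gene) or - (opposite strand) above it and the log2 fold change, CPN over control, beside each name. Matches of the 10 genes with counts belong to genes with log2 fold changes between 0.66 and 3.0, and Derl3 had no counts.

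Total counts lay between 7957228 and 9713938 per library. Control 2 stood apart from the other controls: of the 44 genes that could be tested it had the lowest control value for 32 and the highest for 10, and the summed level of the 45 genes was 8104 CPM there against 12450 and 11800 CPM in control 1 and control 3. CPM are counts scaled to a fixed library size, adjusted by TMM (trimmed mean of M-values). The macrophage markers Cd68, Csf1r and Lyz2 were present in both groups, at 845 ± 13.6, 629 ± 98.0 and 441.5 ± 194 CPM in control (SD, n = 3). Of 6 tested macrophage markers, Adgre1 (3.45-fold, edgeR adjusted p = 0.000609), Itgam (3.94-fold, 5.44e-05) and Fcgr1 (14.1-fold, 0.00338) rose, and the 3 named first did not pass. The macrophage list summed to 1702 to 2216 CPM in control and 2079 to 2698 CPM in CPN. Summed osteoclast markers were 3166 to 3469 CPM in control and 735 to 1195 CPM in CPN, with 6 of 6 tested lower. The granulocyte list summed to at most 0.117 CPM in control and 18.0 to 34.6 CPM in CPN, nearly all S100a8, with Elane, Camp and Ngp at 0 counts. Stromal markers summed to 0 to 6.23 and 12.2 to 20.4 CPM. Dcn had 0 counts in every control and 94, 59 and 98 counts in CPN 1 to 3, and Lum had 0 in every control and 11, 63 and 0 in CPN. The other stromal markers did not follow Dcn. Col1a1 had 0, 37 and 0 counts in control and 7, 21 and 0 in CPN, and Col3a1 had 0, 13 and 0 in both groups. Col1a2 and Pdgfra had counts in control alone. For B and plasma cells, which are rich in ER, the sums were at most 0.701 and 3.36 CPM, with Ms4a1, Cd79b and Pou2af1 at 0 counts. Nearly all of the CPN sum was Mzb1, an ER protein of plasma cells, with 0, 0 and 2 counts in control and 25, 16 and 9 counts in CPN. The part of the macrophage, osteoclast, granulocyte, stromal and plasma cell markers in the results that follow was not tested.

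Of the 45 genes, 32 were higher in CPN than in control, 12 did not pass and Derl3, a derlin, had 0 counts in every library. Genes passed where edgeR's quasi-likelihood p, adjusted by Benjamini-Hochberg across the 11092 genes with enough counts, was under 0.05. This passed 14.0% of all tested genes, 7.62% as higher and 6.39% as lower. No ER gene was lower by edgeR, also at an unadjusted p under 0.05 (0 genes, against 38 higher), and DESeq2 and limma-voom also gave 0 lower, with 37 and 35 higher. Of all 11092 genes, 1527 were higher and 1390 lower at an unadjusted p under 0.05. Over all genes DESeq2 gave 1076 higher and 902 lower of 12424 tested, and limma-voom gave 936 and 738 of 11092. At least a 2-fold rise was found for 27 of the 44, against 5.55% of all genes. The median log2 fold change of the 44 was 1.29, against -0.01 over all genes. All 3 CPN values lay above all 3 control values for 37 of the 44, where 16.9% of all tested genes showed this, and lay below for 0, where 15.7% did. The ER genes were chosen with earlier results of these data known, so the comparisons with all genes are descriptive. Without control 2, 32 of the ER genes were higher, of which 31 were shared with the full comparison, beside 1131 of all 11470 genes tested. Without both control 3 and CPN 1, 23 ER genes were higher, all among the 32 of the full comparison, beside 273 of all 11232 genes tested. In bulk RNA, fewer or more cells of a type and less or more RNA per cell cannot be told apart.

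**Figure D2:**
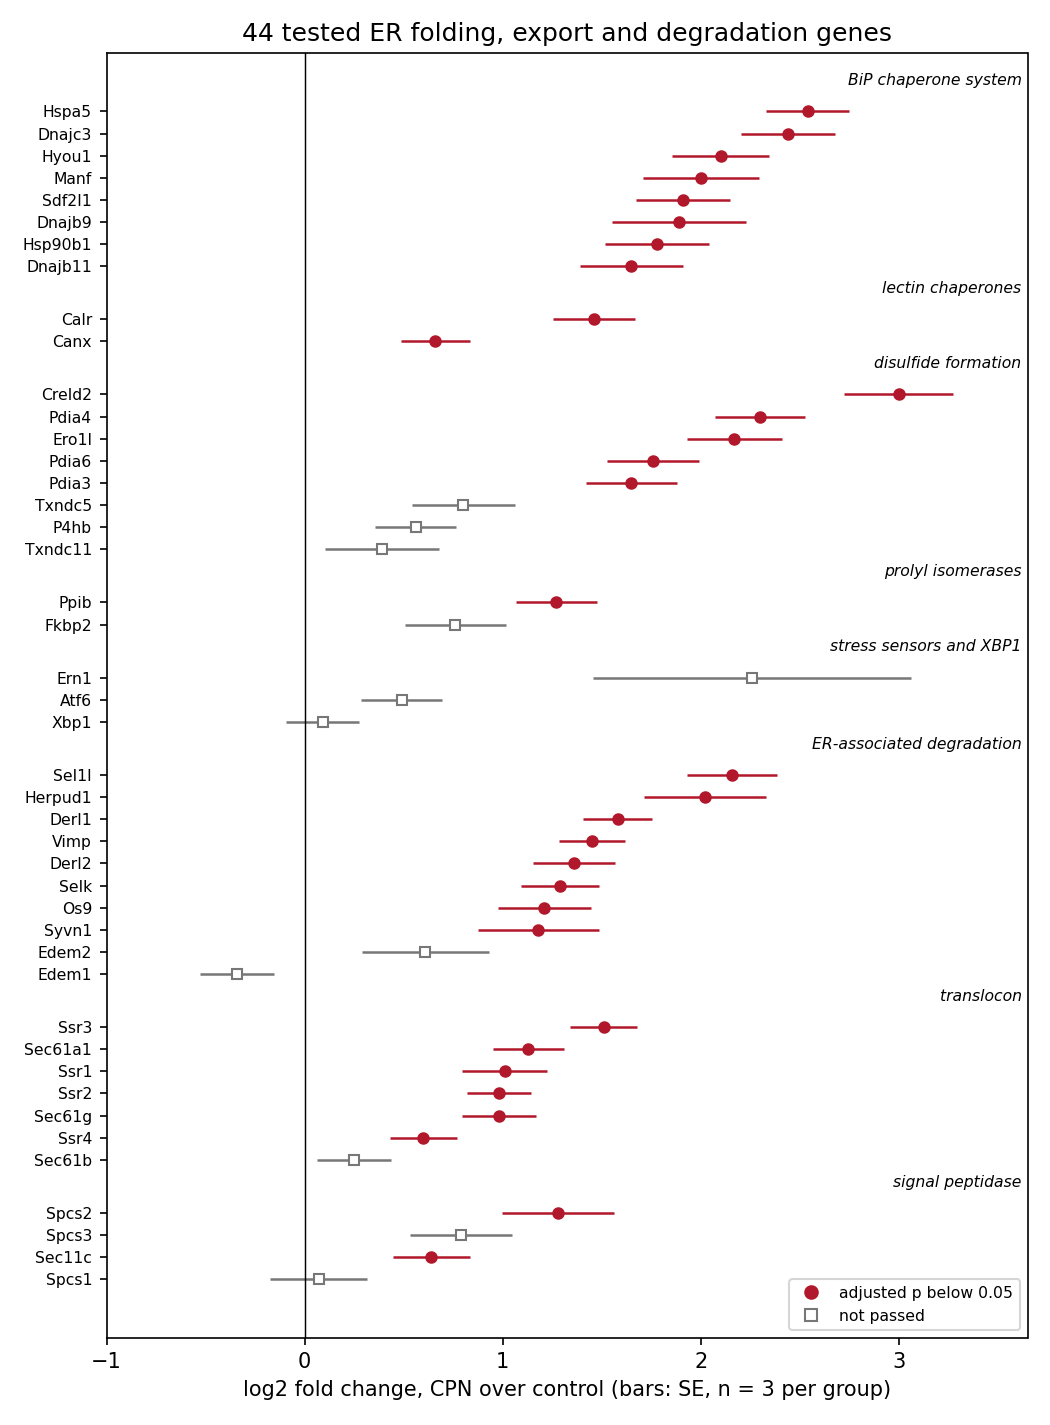
Log2 fold change, CPN over control, with its SE (n = 3 per group) for the 44 tested genes in 8 role groups; filled red circles passed an adjusted p of 0.05 and open squares did not. All 8 BiP-system genes lie between 1.65 and 2.54, and Edem1 at -0.34 is the one gene below 0.

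The BiP system gave 8 higher of 8 tested genes, with a median log2 fold change of 1.96. Hspa5 (chromosome 2, 34771970 to 34777547), which encodes BiP, the main chaperone of the ER, was at 1905, 1118 and 1837 CPM in control 1 to 3 and at 10770, 9958 and 7632 CPM in CPN 1 to 3. Every CPN library lay far above every control, and the rise was 5.83-fold (log2 fold change 2.54 ± 0.209 SE, edgeR adjusted p = 9.73e-06). Its overlapping neighbour Rabepk had 1171 counts over the 6 libraries, 0.431% of the 271753 of Hspa5, and did not pass (edgeR adjusted p = 0.643). Dnajc3, a J-domain co-chaperone that is also an inhibitor of PERK (chromosome 14, 118937976 to 118981697), had 130.5, 73.1 and 117.5 CPM in control and 713, 558 and 472 CPM in CPN. This was a 5.43-fold rise (edgeR adjusted p = 3.39e-05). Hyou1, a large HSP70-like protein that exchanges the nucleotide on BiP (chromosome 9, 44379490 to 44392369), had 147, 82.5 and 139 CPM in control and 677, 487 and 416 CPM in CPN. The 4.29-fold rise of Hyou1 (edgeR adjusted p = 0.000115) had the same lowest control, control 2, as those of Hspa5 and Dnajc3.

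Manf, a secreted neurotrophic factor that binds BiP, had 410.5, 154 and 365 CPM in control and 1479, 1095 and 1152 CPM in CPN, a 4.01-fold rise (edgeR adjusted p = 0.000604). Sdf2l1, which forms a complex with BiP and DNAJB11, had 206, 101 and 150 CPM in control and 473, 597.5 and 650 CPM in CPN (3.77-fold, edgeR adjusted p = 0.000186). Here CPN 3 was the highest library, whereas CPN 1 was for Hspa5, Dnajc3, Hyou1 and Manf. The J-domain co-chaperone genes Dnajb9 and Dnajb11 rose 3.71-fold and 3.13-fold, with Dnajb9 at 7.43 to 15.1 CPM in control and 32.2 to 51.4 CPM in CPN. The call of Dnajb9 was lost without both control 3 and CPN 1 (edgeR adjusted p = 0.0975). Hsp90b1, the HSP90-type chaperone of the ER (chromosome 10, 86690209 to 86705509), was at 1285, 539.5 and 1301 CPM in control and 3678, 3658 and 3385 CPM in CPN. Its CPN libraries were close together while control 2 was well under the other controls, and the rise was 3.43-fold (log2 fold change 1.78 ± 0.263 SE, edgeR adjusted p = 0.000667).

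**Figure D3:**
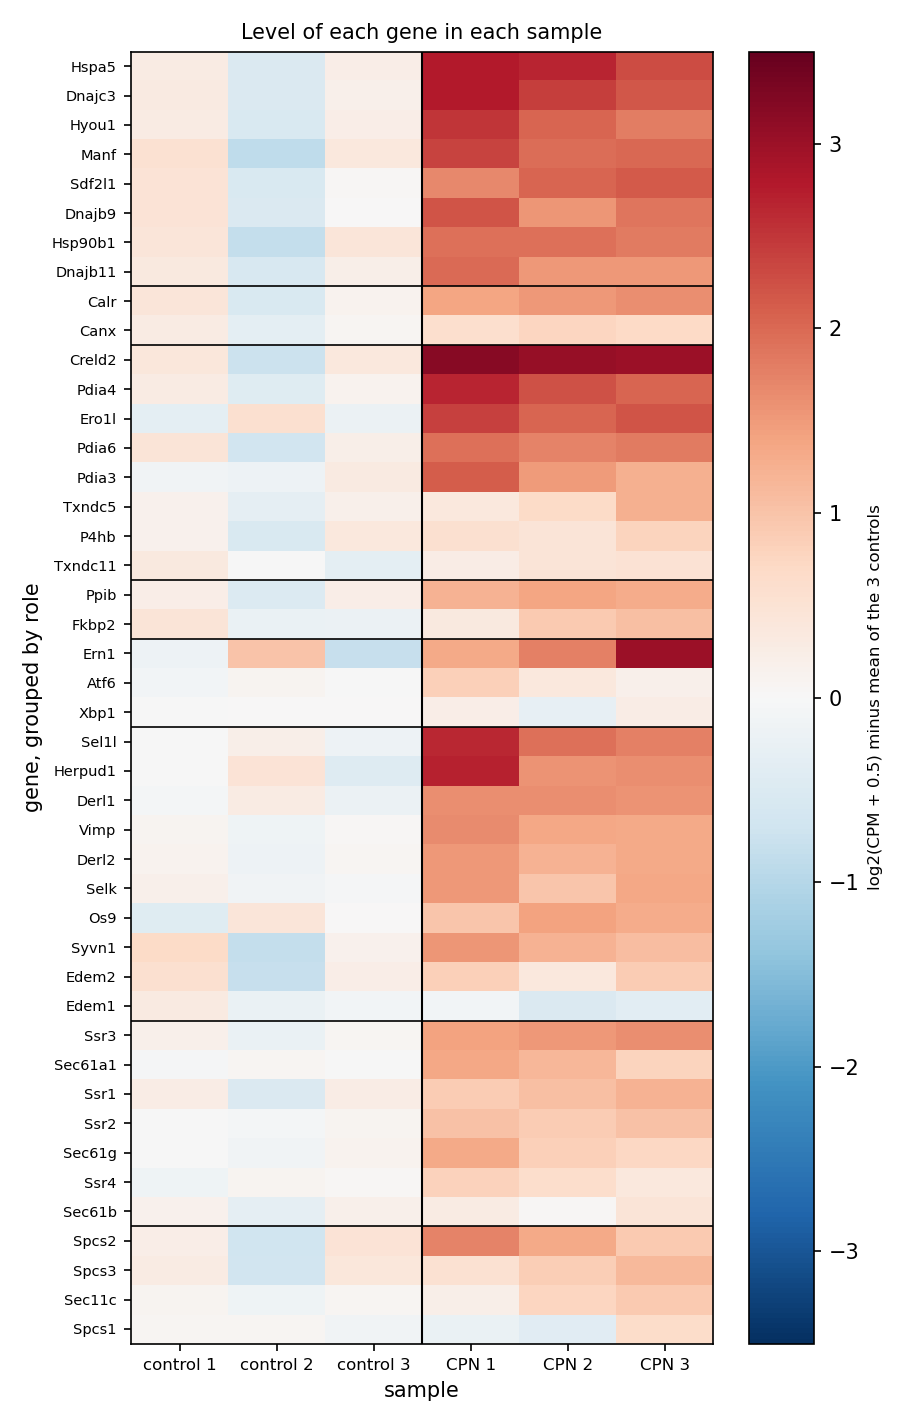
Each row is a tested gene, ordered by role group (black lines) and fold change, and each column a sample; colour shows log2(CPM + 0.5) minus the mean of the 3 controls, with red higher. The CPN columns are red in most rows, control 2 is the bluest control in the BiP system, and CPN 1 holds the highest CPN value for 25 of the 44 genes.

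The lectin chaperones hold glycoproteins during folding, and both of their genes were higher. Calr, encoding calreticulin (chromosome 8, 84841850 to 84846934), was at 1410, 735 and 1143 CPM in control and 2763, 3019 and 3267 CPM in CPN. That is a 2.75-fold rise (log2 fold change 1.46 ± 0.206 SE, edgeR adjusted p = 0.00047). Canx, encoding the membrane-bound calnexin, had 698.5, 449 and 598 CPM in control and 861, 968 and 923 CPM in CPN. The groups of Canx did not overlap, but the 1.58-fold rise (edgeR adjusted p = 0.0239) was smaller. It was lost without control 3 (edgeR adjusted p = 0.0899), CPN 2 (0.0939) or CPN 3 (0.0691), and with library totals alone as scaling (0.0723).

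Disulfide bonds are made by protein disulfide isomerases, which are reoxidised by ERO1, and 5 of the 8 genes of this group rose. Creld2, an ER protein with thioredoxin-like CXXC motifs (chromosome 15, 88819646 to 88826683), was at 58.5, 26.1 and 58.3 CPM in control and 410.5, 376 and 361 CPM in CPN. Its 8.02-fold rise was the largest of the 44 genes (log2 fold change 3.0 ± 0.275 SE, edgeR adjusted p = 2.22e-05). Pdia4 (chromosome 6, 47796141 to 47813430) had 126, 76.4 and 113 CPM in control and 651, 484 and 420 CPM in CPN. Pdia6 had 730, 337 and 619 CPM in control and 2029, 1791 and 1900 CPM in CPN, and rose 3.39-fold (edgeR adjusted p = 0.000282). Pdia3, the isomerase that works with calnexin and calreticulin, had 211, 203.5 and 286 CPM in control and 998, 648 and 546 CPM in CPN (3.13-fold, edgeR adjusted p = 0.000424). Among these isomerases no CPN value reached down to a control value.

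Ero1l, encoding the oxidase ERO1 alpha (chromosome 14, 45283087 to 45318771), had 63.1, 119 and 69.9 CPM in control and 429, 332 and 375 CPM in CPN. The rise was 4.51-fold (edgeR adjusted p = 7.61e-05), and control 2 was here the highest control. P4hb, the founding disulfide isomerase and a subunit of collagen prolyl hydroxylase, had 848.5, 531 and 986 CPM in control and 1125, 1047 and 1306 CPM in CPN. The groups did not overlap, yet the log2 difference of 0.56 (95% interval 0.11 to 1.0) did not pass (edgeR adjusted p = 0.0976). P4hb passed with DESeq2 (adjusted p = 0.0456), limma-voom (0.0393) and no low-count filter (0.0232). Txndc5, a thioredoxin-domain isomerase, had 32.6 to 46.2 CPM in control and 53.3 to 96.8 CPM in CPN and did not pass (edgeR adjusted p = 0.0602). Txndc5 passed without CPN 1 (0.0483 by edgeR), with no low-count filter (0.0211) and with DESeq2 (adjusted p = 0.038). Txndc11, which brings a redox activity to the ERAD machinery, had overlapping groups and a 95% interval of -0.23 to 1.01 on the log2 scale. Its neighbour Snn overlaps its last 75 bases and had 40.0% as many counts, so reads there cannot be assigned.

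**Figure D4:**
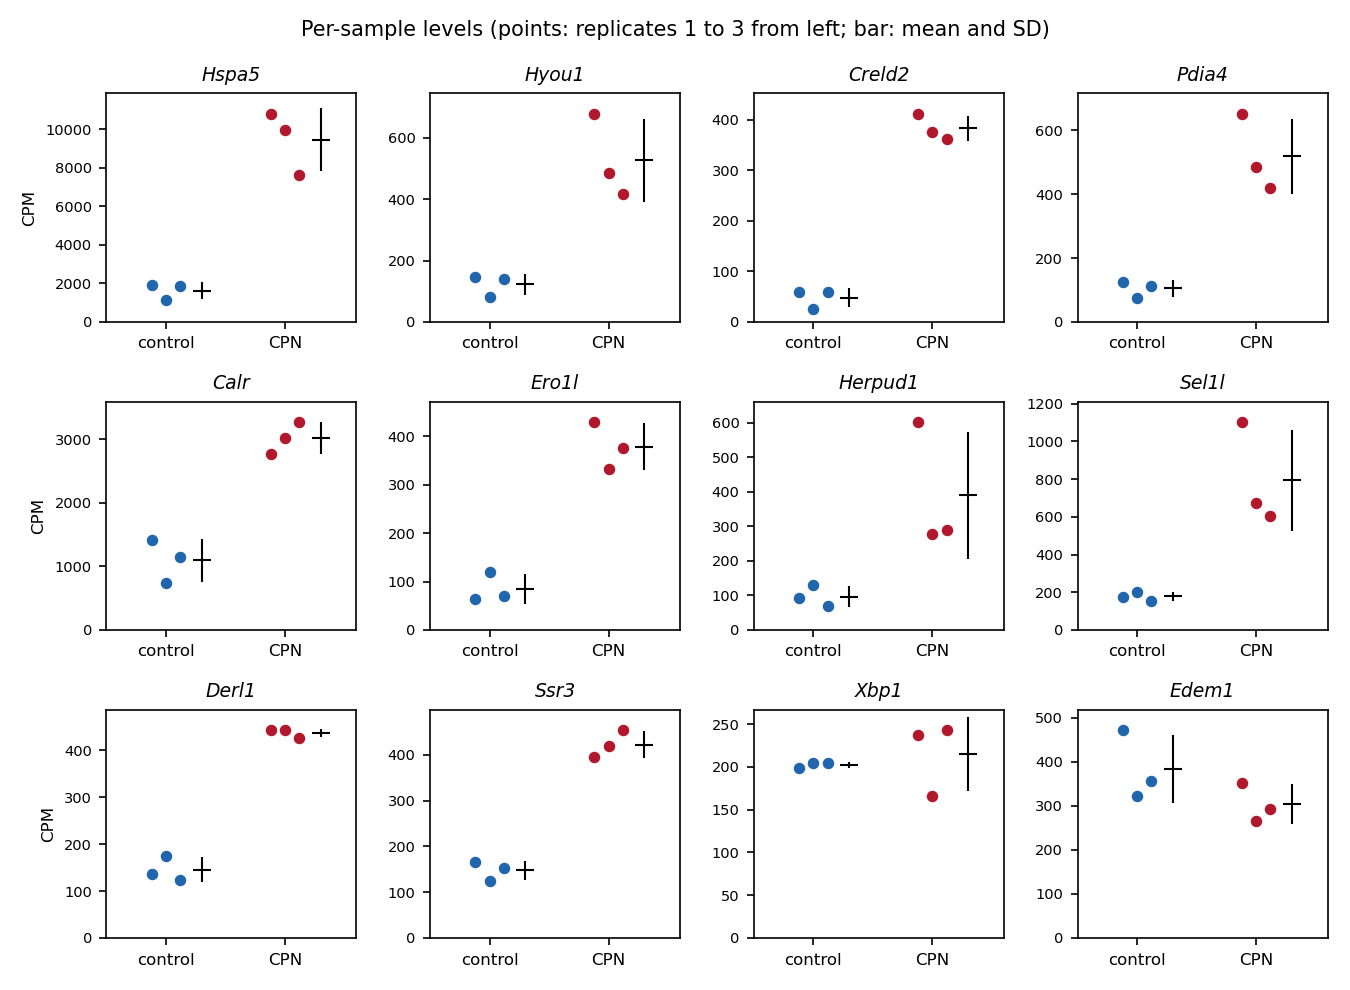
Level in CPM of 12 genes in each sample (points, replicates 1 to 3 from left), with mean and SD (bars, n = 3); each axis starts at 0 and has its own scale. The groups are separate for the first 10 genes and overlap for Xbp1 and Edem1.

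Prolyl isomerases turn proline bonds during folding. Ppib, encoding cyclophilin B, had 177, 107 and 176 CPM in control and 349, 393 and 370 CPM in CPN, a 2.42-fold rise (edgeR adjusted p = 0.00114). This value cannot be given to Ppib alone. Snx22, a sorting nexin gene on the opposite strand that overlaps the 3′ end of Ppib, held 13054 counts against 13098. In control 2 both genes had 892 counts, and in CPN 1 they had 2900 and 2906. Fkbp2, an FK506-binding isomerase, had 91.6, 55.9 and 57.2 CPM in control and 83.8, 125 and 139 CPM in CPN. These groups overlapped, and Fkbp2 did not pass (edgeR adjusted p = 0.0654). It passed when control 1 (0.0253) or CPN 1 (0.0434) was left out, with no low-count filter (0.0128), with DESeq2 (adjusted p = 0.0313) and with limma-voom (0.0465).

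The RNAs of the stress sensors and Xbp1 did not pass (0 of 3). Xbp1, the transcription factor gene whose RNA IRE1 splices (chromosome 11, 5520659 to 5525893), had 199, 204 and 204 CPM in control and 237, 166 and 243 CPM in CPN. The CPN values lay on both sides of the controls, and the log2 fold change was 0.09 (95% interval -0.31 to 0.49, edgeR adjusted p = 0.818). Atf6, the membrane-bound factor that is cleaved under stress, had 90.0, 104 and 95.6 CPM in control and 172, 124 and 110 CPM in CPN. Its groups were separate by a small margin, with a 95% interval of 0.04 to 0.93 and edgeR adjusted p = 0.146. Ern1, encoding IRE1 alpha, was low, with 273 counts in all. It had 1.37, 3.71 and 0.701 CPM in control and 4.8, 6.68 and 16.3 CPM in CPN, where CPN 3 stood above the rest. Its log2 fold change of 2.26 had a 95% interval of 0.52 to 4.0 (edgeR adjusted p = 0.0847). It was 3.14 without control 2 (edgeR adjusted p = 0.0183) and 1.57 without CPN 3 (0.387). In this group 2 genes had an unadjusted p under 0.05, DESeq2 passed 1 (Ern1) and limma-voom passed 0.

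In ERAD, 8 of 10 tested genes rose, with a median log2 fold change of 1.33. The core of the pathway is the ubiquitin ligase HRD1, encoded by Syvn1, with its partner SEL1L. Sel1l (chromosome 12, 91806043 to 91849157) was at 174, 203 and 156 CPM in control and 1102, 676 and 602 CPM in CPN, a 4.47-fold rise (log2 fold change 2.16 ± 0.227 SE, edgeR adjusted p = 5.02e-05). Herpud1, a membrane protein that links parts of this complex (chromosome 8, 94386438 to 94395377), had 92.0, 129 and 68.0 CPM in control and 602, 278 and 289 CPM in CPN. CPN 1 was well above the other CPN libraries for both Sel1l and Herpud1. The log2 fold change of Herpud1 was 2.02 ± 0.309 SE (edgeR adjusted p = 0.000831), and 1.36 without both control 3 and CPN 1 (edgeR adjusted p = 0.0185). Syvn1 had 114.5, 40.0 and 78.7 CPM in control and 208, 167 and 152 CPM in CPN (2.26-fold, edgeR adjusted p = 0.0207). That call was lost without control 3 (edgeR adjusted p = 0.0748), CPN 1 (0.0929) or CPN 2 (0.0675). Mrpl49, which overlaps the last 91 bases of Syvn1 and had 58.0% as many counts, did not pass (edgeR adjusted p = 0.641). In control 1 to 3 Mrpl49 had 857, 290 and 649 counts, beside 1167, 334 and 673 of Syvn1. In CPN 1 to 3 it had 930, 489 and 501 counts, beside 1731, 1277 and 1228. Reads in the overlap cannot be assigned, so neither the level nor the rise can be given to Syvn1 alone.

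The derlins and selenoproteins form the exit route for ERAD substrates. Derl1 (chromosome 15, 57869502 to 57892448) was at 137, 175 and 125 CPM in control and 443, 442 and 426 CPM in CPN, a rise of 3.0-fold, with CPN libraries close together (edgeR adjusted p = 7.51e-05). Derl2 rose 2.57-fold, from 34.5 to 42.2 CPM in control to 91.2 to 112.8 CPM in CPN. Mis12 overlaps it with 28.0% as many counts and a log2 fold change of 0.12. The genes share 231 exon bases, of which 0 lie in the last 500 bases of Derl2. Vimp, now Selenos, which recruits the ATPase VCP to derlins, had 208, 176 and 201 CPM in control and 608, 500.3 and 488 CPM in CPN (2.73-fold, edgeR adjusted p = 9.69e-05). Selk, now Selenok, another derlin-binding selenoprotein, rose 2.45-fold (edgeR adjusted p = 0.000807). Os9, a lectin that brings glycoproteins to the ligase, had 48.3, 87.7 and 65.5 CPM in control and 129, 174 and 161.5 CPM in CPN (2.31-fold, edgeR adjusted p = 0.00416). Its call was lost without both control 3 and CPN 1 (edgeR adjusted p = 0.0568).

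The EDEM proteins trim mannose from misfolded glycoproteins, and their 2 genes did not pass. Edem1 (chromosome 6, 108828641 to 108859356) had 471, 323 and 356 CPM in control and 353, 264 and 293.5 CPM in CPN. It was the one tested gene of the 44 with a negative log2 fold change, -0.34 (95% interval -0.74 to 0.07, edgeR adjusted p = 0.285), and its groups overlapped. Edem2 had 47.7, 18.1 and 37.4 CPM in control and 57.0, 41.0 and 59.6 CPM in CPN, with overlapping groups and a 95% interval of -0.09 to 1.31. The difference between these genes and the rest of the group was not tested.

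In the translocon, 6 of 7 genes rose, with a median log2 fold change of 0.98, and 3 reached 2-fold. Sec61a1, the pore subunit (chromosome 6, 88503579 to 88518905), had 199, 213 and 202 CPM in control and 527, 462 and 355 CPM in CPN, a 2.19-fold rise (edgeR adjusted p = 0.00095). Sec61g, the small gamma subunit, rose 1.97-fold (edgeR adjusted p = 0.00389), and Sec61b, the beta subunit, had 207 to 291 CPM in control and 264 to 351 CPM in CPN and did not pass (edgeR adjusted p = 0.445). Stretches of 50 identical bases near the 3′ end of Sec61b and Sec61g also occur in annotated pseudogenes or gene models elsewhere, so counts of these subunits are uncertain. The SSR proteins form the TRAP complex beside the channel. Ssr3 was at 165, 125 and 154 CPM in control and 394, 418.5 and 454 CPM in CPN, and rose 2.85-fold (log2 fold change 1.51 ± 0.170 SE, edgeR adjusted p = 8.85e-05). Ssr1 rose 2.01-fold (edgeR adjusted p = 0.00707) and Ssr2 1.98-fold (0.00136), with 131 to 148 CPM of Ssr2 in control and 255 to 285 CPM in CPN. Ssr4 had 220, 260.5 and 247 CPM in control and 422, 374 and 311 CPM in CPN (1.52-fold, edgeR adjusted p = 0.0319). The call of Ssr4 was lost without control 1 (edgeR adjusted p = 0.134), control 3 (0.112), CPN 1 (0.105) or CPN 2 (0.096) with the replicate number as a block (0.0688) and with library totals alone (0.0903). Without both control 3 and CPN 1, 3 translocon genes passed, and a test against a fold of 1.5 passed 2.

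Signal peptidase cuts the signal peptide from imported proteins, and 2 of its 4 genes rose. Spcs2 had 159, 82.8 and 187 CPM in control and 447, 342 and 253 CPM in CPN (2.43-fold, edgeR adjusted p = 0.00876, and 0.0529 without CPN 1). Spcs2 shares stretches of 50 bases with the pseudogene Spcs2-ps. Sec11c, a catalytic subunit, had 217, 183 and 212 CPM in control and 234, 340.3 and 380.4 CPM in CPN (1.56-fold, edgeR adjusted p = 0.0446). Its call was lost without control 1 (edgeR adjusted p = 0.0944), control 2 (0.0552), control 3 (0.127), CPN 2 (0.149) or CPN 3 (0.173), with the block (0.0853) and with library totals alone (0.105). Spcs3 did not pass at 85.7 to 180 CPM in control and 198 to 299.7 CPM in CPN (edgeR adjusted p = 0.0622), with groups that did not overlap. It passed with DESeq2 (adjusted p = 0.0192), limma-voom (0.027) and no low-count filter (0.00325). Spcs1 had 163, 161 and 141 CPM in control and 131.5, 117 and 240.4 CPM in CPN, with CPN values on both sides of the controls (95% interval -0.46 to 0.61).

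**Figure D5:**
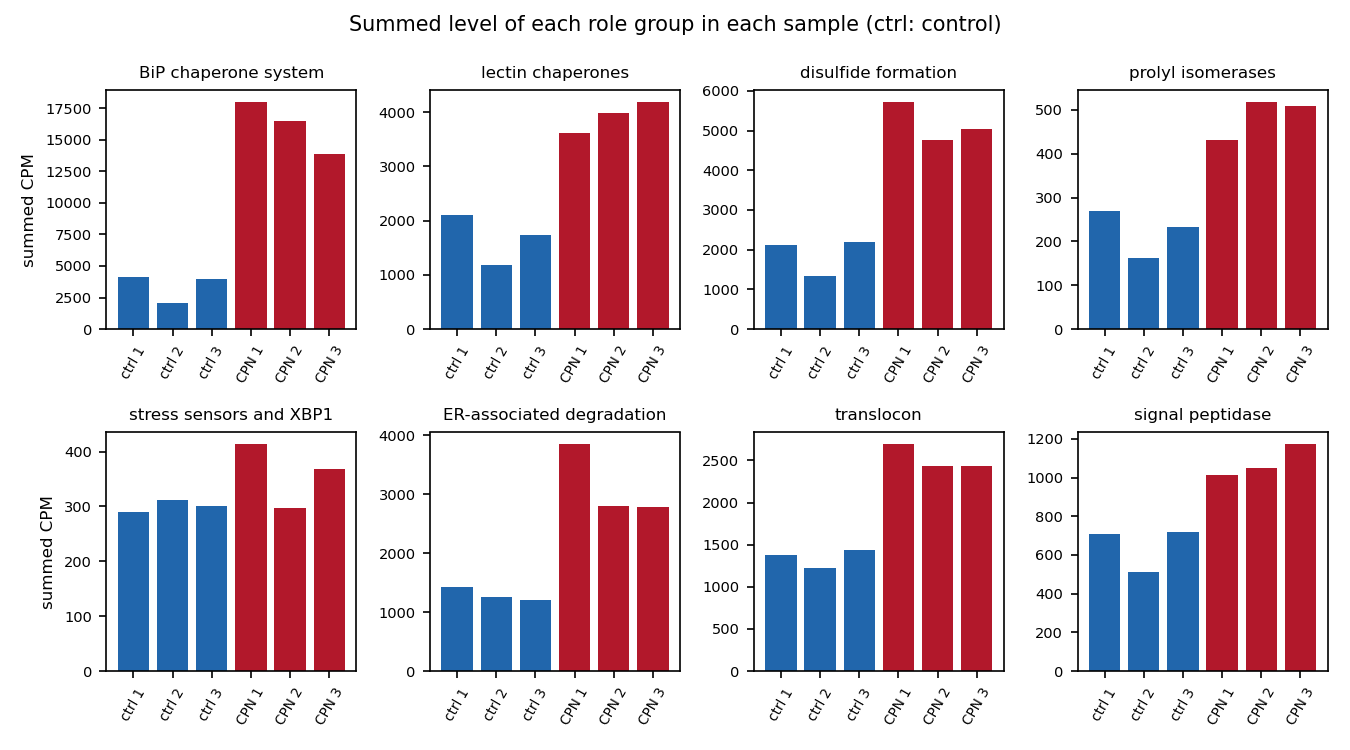
Summed CPM of the genes of each role group in each sample (blue: control, red: CPN; each axis starts at 0 and has its own scale). The BiP system lay between 2103 and 4150 CPM in control and between 13870 and 18000 CPM in CPN, while sensors and XBP1 lay between 290 and 312 CPM in control and between 296.5 and 414 CPM in CPN.

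Over the whole set, the summed level was 8104 to 12450 CPM in control and 30360 to 35760 CPM in CPN. Without Hspa5 it was 6985 to 10540 and 22410 to 24990 CPM, and the groups did not overlap without that abundant gene. Of the 32 genes that rose, 27 passed in each of the 6 fits that leave out 1 library. The 5 others were Canx, Syvn1, Ssr4, Sec11c and Spcs2. Of all genes, 525 to 1131 were higher in these fits, and how many held in each of the 6 was not counted. The 32 include Ppib and Syvn1, whose counts cannot be separated from those of Snx22 and Mrpl49, and Ppib is also among the 27. Among the 12 that did not pass, 5 had groups that did not overlap (P4hb, Txndc5, Ern1, Atf6 and Spcs3). Of all tested genes, passed or not, 16.9% had all 3 CPN values above all 3 control values.

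Read against the promoter elements above, 8 of the 8 tested genes with an ERSE match rose, with log2 fold changes of 0.66 to 3.0 and a median of 1.77. They include Syvn1, whose counts cannot be separated from those of Mrpl49. Of the 28 tested genes with a window and no match, 18 rose, with a median of 1.27 and a range of -0.34 to 2.30. Pdia4 at 2.30 and Sel1l at 2.16 are among those that rose without a match in their windows. The difference between these subsets was not tested. Because ERSE was first defined in promoters of BiP, Hsp90b1 and calreticulin genes, its share in this set is not independent of how such genes are known. Outside the set, 6 tested genes held an ERSE match (Adcy3, Alg12, Ero1lb, Hnrnpa3, Pan2 and Ptgdr2) and did not pass, with log2 fold changes from -1.78 for Adcy3 (edgeR adjusted p = 0.0555) to 1.39 for Alg12 (0.287). Of the other elements searched on both strands, TGACGTGG lay in the windows of 2 of the 37 genes (Txndc5 and Txndc11, which did not pass) and of 1.09% of tested genes. TGATGNAAT, a C/EBP-ATF type element, lay in 0 of the 37 and 0.52% of tested genes.

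Further genes of the same pathways were described from lists. Of 134 tested genes in 6 further lists, 42 were higher (31.3%) and 2 lower, with a median log2 fold change of 0.46, beside 32 of 44 and 1.29 for the genes above and the background of 7.62% higher. The difference between these shares was not tested. In the list of other disulfide and folding genes, 9 of 29 rose. They include Fkbp11, a prolyl isomerase of secretory cells (32.3 ± 3.70 to 153 ± 7.83 CPM), Pdia5 (8.71 ± 3.57 to 42.6 ± 2.68 CPM) and the oxidase gene Qsox1 (23.1 ± 6.90 to 74.0 ± 12.9 CPM), each as mean and SD of 3. The 1 that fell, named after its values were seen, was Erp29, a redox-inactive relative of the disulfide isomerases (664 ± 37.3 to 363 ± 10.8 CPM). Of 14 oligosaccharyltransferase and glucose-trimming genes, which add and trim the sugar chains, 9 rose, among them Ostc (log2 fold change 1.27), Rpn1 (1.07) and Prkcsh (0.95). Of 24 genes of COPII vesicles and KDEL receptors, which carry proteins onward and return escaped chaperones, 10 rose, among them the cargo receptor subunit genes Mcfd2 (1.73) and Lman1 (1.22), and Tmed2 (1.15).

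Among 18 genes that target or move proteins into the ER, 8 rose, led by the signal recognition particle receptor genes Srprb (log2 fold change 1.0) and Srpr (0.95) and by Sec63 (0.78). Of 31 other ERAD genes, 3 rose (9.68%, near the 7.62% of all tested genes) and 1 fell, where 6.39% of all tested genes did. Erlin1 rose by 1.27, Ubxn4 by 0.70 and Ube2j1, an ERAD ubiquitin-conjugating enzyme named after its values were seen, by 0.75 on the log2 scale, while Dnajb14, a J-domain protein of the ER membrane, fell by 1.93 from 97.8 ± 20.9 to 25.7 ± 5.56 CPM (edgeR adjusted p = 0.000249). In the lists with no gene lower, DESeq2 and limma-voom also gave 0 lower, and edgeR gave 0 lower at an unadjusted p under 0.05, except Sec24b in the COPII list (log2 fold change -0.90, edgeR adjusted p = 0.0784), a coat gene named after its values were seen, which passed without control 2 (edgeR adjusted p = 0.0222). Counts of higher genes moved when libraries were left out. The COPII count was 5 without CPN 1, and the oligosaccharyltransferase count was 4 without CPN 2 and 4 without CPN 3. The other ERAD count was 1 without CPN 2. The targeting count fell to 1 without control 3 and 3 when CPN 2 was left out, and was 4 without control 1, 4 without CPN 3 and 5 without CPN 1. Among the genes named from these lists, those whose call was lost when 1 library was left out were Ubxn4 (control 1 or CPN 2), Srpr (control 3), Sec63 (control 3 or CPN 2) and Ube2j1 (each library but control 1), with edgeR adjusted p up to 0.0538, 0.0632, 0.0579 and 0.123. Ube2j1 was also lost with library totals alone (edgeR adjusted p = 0.0921).

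In the list of PERK-branch and other regulators of the unfolded protein response, 3 of 18 rose. Ppp1r15a, which restores translation by dephosphorylating eIF2 alpha, rose by 1.96 on the log2 scale (edgeR adjusted p = 0.000574). Ddit3, encoding the transcription factor CHOP, was at 43.3, 299.7 and 59.5 CPM in control and 767, 808 and 634 CPM in CPN, and Atf4, the factor upstream of it, was at 202, 695 and 176.5 and at 1114, 1007 and 725 CPM. Control 2 was far above the other controls for both, the opposite of its place for Hspa5. Chac1, of the same list and also named after its values were seen, had 2.55, 50.3 and 3.04 CPM in control and 28.7, 36.7 and 48.6 CPM in CPN. Its groups overlapped, with control 2 above every CPN library, and it did not pass (edgeR adjusted p = 0.477). Trib3, an ATF4 target named after its values were seen, had 1.77, 126 and 1.05 CPM in control and 211, 217 and 189 CPM in CPN. Trib3 did not pass (log2 fold change 2.27, edgeR adjusted p = 0.204). Its log2 fold change was 7.17 without control 2 (edgeR adjusted p = 2.77e-10), and it passed with limma-voom (adjusted p = 0.000527), no low-count filter (1.98e-05) and the block (0.026). Without control 2 the count of this list was 7 higher, with log2 fold changes of 3.86 for Ddit3 and 2.34 for Atf4, against 2.46 and 1.41 with it. The call of Atf4 (edgeR adjusted p = 0.0372) was lost with DESeq2 (adjusted p = 0.178) and without each other library, with edgeR adjusted p up to 0.135. That of Ddit3 (edgeR adjusted p = 0.00906) was lost without both control 3 and CPN 1 (0.136).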

How the data were processed

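Per the labels' protocols, TRIzol RNA went into QuantSeq libraries. The authors deposited raw counts for each gene in 6 tables, of 7957228 to 9713938 counts. The submitters' processing notes name Bowtie2, bedtools and the build mm10, with no role or version; the annotation, use of strand and treatment of multiple alignments were not stated in the sources used here. The main model was fitted in edgeR 4.0.16 (R 4.3.3) with TMM scaling, filterByExpr (minimum count 10, minimum total 15), the quasi-likelihood test and Benjamini-Hochberg adjustment across 11092 genes, and calls were made under 0.05. The common coefficient of variation between replicates, which edgeR calls biological, was 0.355, and here it may be only technical. SE is the log2 fold change divided by the square root of F, and 95% intervals use the test's degrees of freedom. The code was tested on simulated data.

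The members and lists were chosen with earlier results of these data known. Every member was reported, and from each further list at most 3 genes, those of lowest p; others are marked as named after their values were seen. Positions are from GENCODE M21 and promoter sequences from RefSeq, both GRCm38. Of the 43 windows, 39 continue into a GENCODE transcript of the gene. In either annotation, 14 members overlap another measured gene, and for 5 of these it had at least 10% of the member's counts. For 8 members, a stretch of 50 bases within the last 600 also occurs at a locus that does not overlap them. These are Dnajb9, Hsp90b1, Ppib, Sec61b, Sec61g, Spcs2, Ssr1 and Txndc11, and the share of their counts from such loci is not known.

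Alternatives were RLE size factors, library totals, removal of Rn45s (9.04% to 16.6% of counts), DESeq2 1.42.0, limma-voom (limma 3.58.1), no filter or a minimum count of 30, the replicate block, edgeR's test relative to a fold of 1.5, and libraries left out.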

Additional observations from a re-analysis of the deposited data

How the results depend on the processing

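The count of 32 higher genes stayed within 1.5 times in each alternative: 37 with DESeq2, 36 with no low-count filter, 35 with limma-voom, 29 with library totals alone, 24 against a fold of 1.5, 23 without both control 3 and CPN 1, 32 with RLE factors, without Rn45s or at a minimum count of 30, and 28 to 32 with 1 library left out. The count of lower ER genes was 0 in all of these. The count of all genes higher, 845 as reported, moved more. It was 1076 with DESeq2, 1046 with no low-count filter, 936 with limma-voom and 424 against a fold of 1.5. It was 273 without both control 3 and CPN 1, and 525 to 1131 with 1 library left out. Between 173 and 914 of all genes were lower in these alternatives. Of the 32 calls, 22 held under each of the 16 alternatives, and 5 of the 12 other genes passed under at least 1. The median log2 fold change of 1.29 was 1.17 with library totals alone, which moved the median of all genes from -0.008 to -0.129 and the calls over all genes from 845 higher and 709 lower to 690 and 914; it lay between 1.25 and 1.41 with 1 library left out. With the replicate number as a block (paired fit), 30 genes were higher and the median was 1.32. Same-numbered samples did not deviate together (r of -0.051, 0.02 and 0.028 over 11092 genes), so the numbers were taken as names; control 1 and control 2 correlated best with CPN 3 and CPN 1.

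Counts of the smaller groups that moved by over 1.5 times were as follows, beside those given above for the further lists with libraries left out. Against a fold of 1.5, higher genes were 1 lectin chaperone, 2 translocon, 0 signal peptidase, 4 COPII, 2 oligosaccharyltransferase, 1 other ERAD and 0 targeting genes, and 0 other folding genes were lower. Without both control 3 and CPN 1 they were 1, 3, 0, 4, 3, 0 and 0, with 4 other folding genes and 1 PERK-list gene. Library totals alone gave 1 lectin, 1 signal peptidase and 3 targeting genes, and the block 1 signal peptidase and 5 targeting genes. DESeq2, limma-voom and no filter gave 2 prolyl isomerases, and the PERK list had 6 with limma-voom and 5 with no filter. Without control 2, 1 COPII gene was lower. With 1 library left out, the signal peptidase count fell in each fit, by loss of Spcs2 without CPN 1 and of Sec11c otherwise. The lectin count fell by loss of Canx without control 3, CPN 2 or CPN 3. The prolyl isomerase count rose by gain of Fkbp2 without control 1 or CPN 1. Ern1 was gained in the sensor group with DESeq2 and without control 2. The causes were not tested. Depth limits Ern1 (273 counts) and Derl3 (0 counts, where 3 counts would be 0.294 to 0.393 CPM).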
